A study of Mus musculus with 8 samples.

Results

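The genes flanking Brd2 on mouse chromosome 17 were followed in brain tissue of Brd2 heterozygous and wildtype females. The sample descriptions and the dissection protocol name the striatum, while the tissue label names prefrontal cortex as well. Brd2 is a BET protein: its bromodomains read acetyl marks on histones and help recruit the transcription machinery. The flanking genes were taken as all array probes whose lower coordinate lies between 33 and 35.5 Mb on chromosome 17 (mm9), leaving out the 2 probes of Brd2 itself and 10 probes of genes whose names begin with Rpl, Rps, Psm, Hsp or Nduf. This gave 149 genes read by 184 probes, of 39429 probes on the array. The rule uses position and gene name only. Distances run to the start of a probe from a point in Brd2 about 1 kb distal of the start of its 3′ probe; proximal means toward the lower coordinates.

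The heterozygous mice carried 1 gene-trap insertion in Brd2 beside 1 intact copy, and the wildtype mice carried 2 intact copies. All were adult females from heterozygous parents, of generation 7 of a backcross to C57Bl/6J, and received no treatment. There were 4 samples of each genotype, hybridised on 4 two-colour arrays, each of which held 2 samples of 1 genotype. Odd replicate numbers were labelled with Cy3 and even ones with Cy5. The sources used here do not give the site of the trap within the gene, the strain in which the trapped allele was made, or whether a sample is 1 animal; p-values therefore reflect sample-to-sample spread, which may be technical in part.

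The window is gene-dense and holds the proximal part of the mouse major histocompatibility complex, called H2. Further class I genes, among them H2-Q4, H2-Q10 and H2-M2, lie beyond its distal end. From the proximal end it runs through a zinc finger gene cluster, the class I genes H2-K1 and H2-K2 and the class II genes around Brd2. It then runs through the class III genes with complement and the tumour necrosis factor cluster to class I genes of the D region and the start of the Q region. Class I molecules present peptides from inside the cell and are made by most nucleated cells; class II molecules present peptides taken up from outside and are largely restricted to professional antigen-presenting cells. Backcrossing a modified allele replaces unlinked chromosomes quickly but keeps a stretch of the original chromosome around the selected gene, and the H2 genes are among the most variable between mouse strains. The comparison by distance asks how expression near Brd2 stood in the heterozygotes against expression farther away.

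The probes that the comparison turns on are shown with their sequence on the mRNA strand, from the deposited array files. Probes are 60 bases long, and at most 30 of them are printed except for H2-K1. In Brd2 the capitals mark AATAAA, the hexamer that directs polyadenylation, searched on the printed strand only; it occurs in 12.6% of all probes and in 13.6% of the flanking probes. In the pair of H2-K2 probes the capitals mark the longest run of 26 bases that both hold. In Egfl8 and Agpat1 the capitals mark bases that are complementary between both probes, which read opposite strands.
Brd2, chr17:34248982-34249041, minus strand, bases 31 to 60: ttgagtctaacatgtaAATAAAgaaaatat
H2-K1, chr17:34133984-34134043, minus strand, bases 1 to 60: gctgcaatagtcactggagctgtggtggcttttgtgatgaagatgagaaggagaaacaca
H2-K2, chr17:34111920-34111979, minus strand, bases 1 to 30: TCACACATCTCCTGTGACATCCAGAGacct
H2-K2, chr17:34111941-34112000, minus strand, bases 18 to 47: gtctTCACACATCTCCTGTGACATCCAGAG
CD768206, chr17:34264919-34264978, minus strand, bases 1 to 30: cttccctggagttctgtccttaactctctt
Egfl8, chr17:34750305-34750364, minus strand, bases 1 to 30: GTCTCTCTTTCTCTTTATTTTCAGTTGCTT
Agpat1, chr17:34750307-34750366, plus strand, bases 29 to 58: AAGCAACTGAAAATAAAGAGAAAGAGAGAC

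Depth on these arrays is a matter of signal over background. Spots well above background made up 47.5%, 74.7%, 37.7% and 75.5% of each array channel in heterozygous replicates 1 to 4 and 43.6%, 65.9%, 47.6% and 68.9% in wildtype replicates 1 to 4, with the lower shares in Cy3, and no spot was saturated. The tissue was checked against markers of both regions named. All 14 striatal projection neuron markers were measured and had a negative difference, 3 of them at an unadjusted p under 0.05, and their mean levels against the wildtype mean ranged from -1.08 to 0.15 in heterozygous samples and from -0.10 to 0.11 in wildtype samples (log2). All 10 cortical excitatory neuron markers had a positive difference, 7 of them at an unadjusted p under 0.05, with mean levels of 0.55 to 1.88 in heterozygous samples and -0.27 to 0.68 in wildtype samples. Choroid plexus markers reached 1.82 in heterozygous replicate 3, against -0.62 to 0.44 in heterozygous replicates 1, 2 and 4 and -0.28 to 0.16 in the wildtype group. None of these markers passed the adjusted threshold, and their part in the differences below was not tested. Over all probes tested, 8.76% had an unadjusted p under 0.05, 4.45% higher and 4.31% lower in heterozygous samples.

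Brd2 itself checks the labels. The probe at its 3′ end had log2 intensities of 11.81, 11.97, 12.43 and 11.82 in heterozygous replicates 1 to 4, against 12.95, 13.09, 12.50 and 12.80 in wildtype replicates 1 to 4. Every heterozygous value lay below every wildtype value, with heterozygous replicate 3 close to wildtype replicate 3. The means were 12.01 ± 0.29 in heterozygous and 12.83 ± 0.25 in wildtype samples (SD, n = 4 each), a difference of -0.83 (SE 0.19), or 56.4% of wildtype. The exact two-sided permutation p was 0.0286, the smallest that 4 samples against 4 allow, and limma's Benjamini-Hochberg adjusted p over all probes was 0.402. The permutation took the samples as independent, although each array held 2 samples of 1 genotype, so its p can be too small. A second Brd2 probe at 34255967 to 34256026 was dim, well above background in 3 heterozygous and 2 wildtype samples, and differed by 0.29 (SE 0.17).

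Of the 184 flanking probes, 134 probes of 113 genes were well above background in at least 4 of the 8 samples and were tested. That is 72.8%, against 64.2% of all probes on the array. There were 82 probes well above background in all 8 samples, which is 44.6%, against 35.3% of all probes. The 50 untested probes include 32 that were well above background in no sample and 18 in 1 to 3 samples. Several immune genes were not tested. H2-Aa, the class II alpha chain, and Tap1, a subunit of the peptide transporter, were each well above background in 2 heterozygous and 0 wildtype samples. Tnf was so in 2 heterozygous and 1 wildtype sample and Ager, a receptor for glycated proteins, in 1 heterozygous and 0 wildtype samples. H2-Ea, a class II gene that C57BL/6 mice are known not to transcribe, was well above background in 0 of 4 heterozygous and 0 of 4 wildtype samples, as were H2-DMb2, H2-Eb2 and Lta.

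No flanking probe differed between genotypes at an adjusted p under 0.05. Over the whole array 1 of 25325 probes did, or 0.00395%, and the lowest adjusted p among the flanking probes was 0.474, for H2-K1. At an unadjusted p under 0.05 there were 11 flanking probes, 8.21% of those tested, against 8.76% of all probes tested. Of these, 7 were higher in heterozygous samples, against a background of 4.45%, and 4 were lower, against 4.31%. The share of flanking probes below that threshold was thus about that of the array. All 11 were among the 82 flanking probes well above background in all 8 samples, 13.4% of these, against 10.1% of all probes that were so. Of the other 52 tested flanking probes 0 were below it. There were 76 positive and 58 negative differences, with a median of 0.04 on the log2 scale, against -0.01 over all probes. The median size of the difference, regardless of sign, was 0.127, against 0.139 over all probes and 0.148 over the other 1060 tested probes of chromosome 17. The median SE of a flanking probe was 0.154.

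The heterozygous and wildtype values did not overlap for 4 of the 130 flanking probes measured in every sample, 3.08%, against 8.57% of all probes. Neu1 was the single one with all heterozygous values above, against a background of 3.77%. Egfl8, Lst1 and Zfp763 had all heterozygous values below, against a background of 4.8%. Differences over 0.5 in size were found for 4 flanking probes, 2.99%, against 5.97% of all probes; they belong to Marchf2, Atf6b, H2-K1 and H2-K2.

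**Figure D1:**
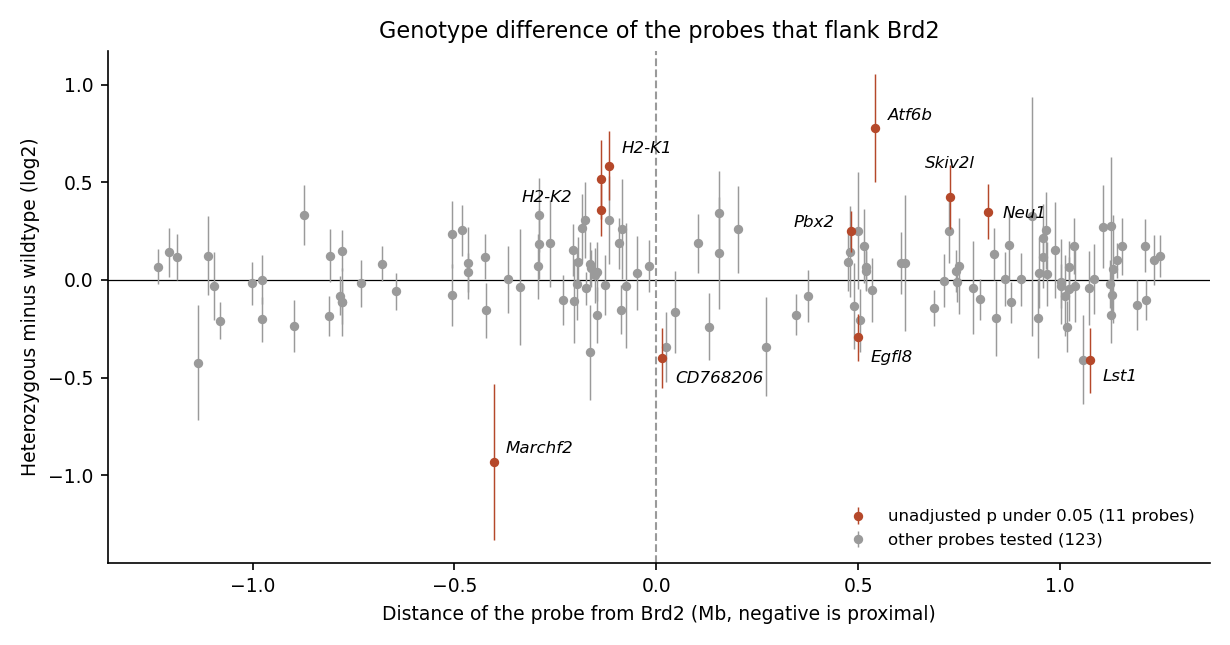
Heterozygous minus wildtype difference (log2, bars are SE) of the 134 tested probes that flank Brd2, against the distance from Brd2 in Mb. The 11 probes at an unadjusted p under 0.05 are coloured and named, 4 of them proximal and 7 distal, and none passed the adjusted threshold.

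By distance, the median size of the difference was 0.165 for the 33 probes within 0.25 Mb of Brd2 and 0.145 for the 19 probes at 0.25 to 0.5 Mb. It was 0.085 for 22 probes at 0.5 to 0.75 Mb, 0.134 for 27 probes at 0.75 to 1 Mb and 0.103 for the 33 probes beyond 1 Mb. The order did not fall steadily. The median SE was 0.172, 0.172, 0.160, 0.139 and 0.141 in the same order of bins. The share at an unadjusted p under 0.05 was 12.1%, 10.5%, 13.6%, 3.70% and 3.03% in the same order of bins, which rests on 4, 2, 3, 1 and 1 probes. Of the 4 in the nearest bin, 3 belong to H2-K1 and H2-K2; without those genes the bin held 29 probes, with a median size of 0.152 and a share of 3.45%. Beyond the window the median size was 0.119 for 162 probes of chromosome 17 from the window's edges to 5 Mb, 0.147 for 510 probes at 5 to 20 Mb and 0.161 for 388 probes farther away. Probes farther than 5 Mb from Brd2 therefore differed by about as much as those nearest to it. The proximal and distal sides had medians of 0.119 over 60 probes and 0.137 over 74 probes.

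**Figure D2:**
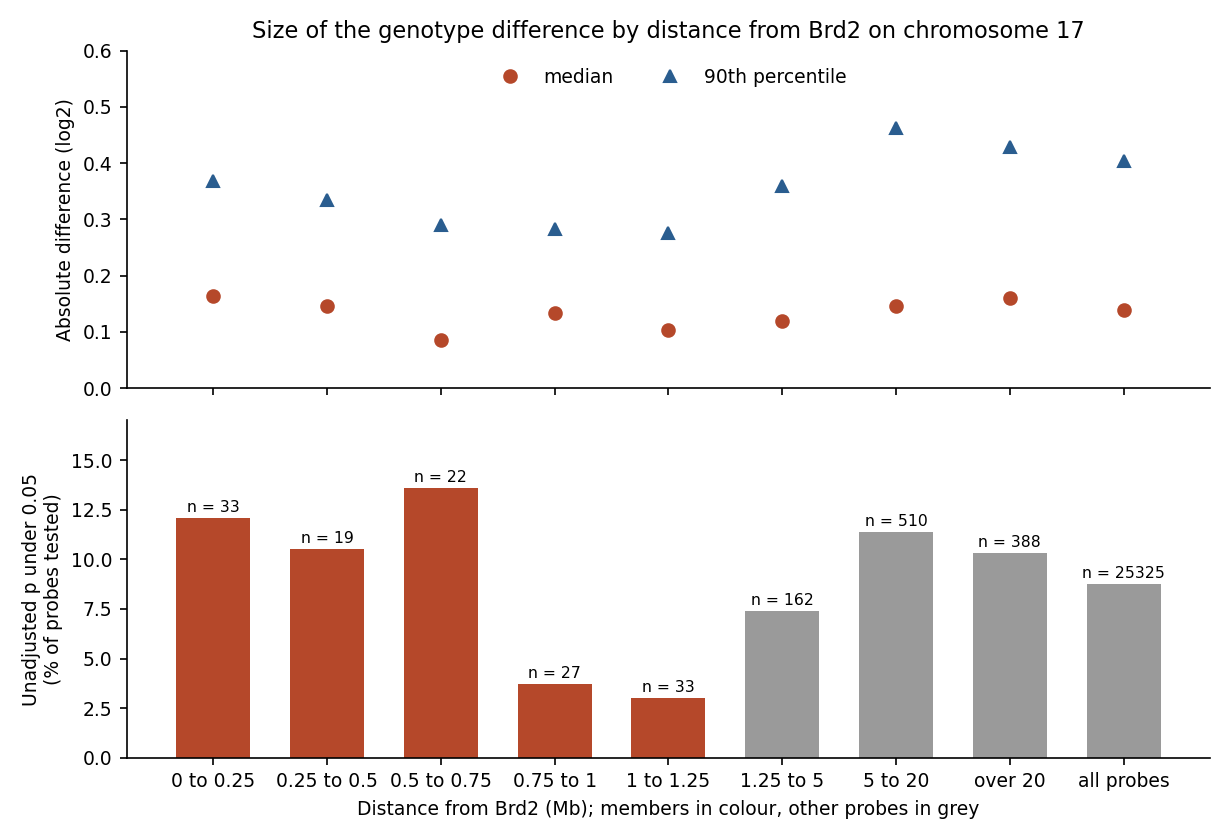
Upper panel, median and 90th percentile of the absolute heterozygous minus wildtype difference (log2) in bins of distance from Brd2 on chromosome 17 and over all probes; lower panel, share of tested probes at an unadjusted p under 0.05 (%), with the number of probes above each bar. The medians lie between 0.085 and 0.165 in every bin, and the share over all probes is 8.76%.

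The nearest tested neighbours of Brd2 were examined on each side, passing over untested ones, such as BC051537 on the proximal side and H2-DMb2 on the distal side. On the proximal side these are H2-Oa, 18 kb away, which encodes a chain of the molecule that restrains class II peptide loading, then the collagen gene Col11a2 and the retinoid X receptor gene Rxrb. Their differences were 0.07 (SE 0.13), 0.04 (SE 0.19) and -0.03 (SE 0.32); Rxrb had values in 2 heterozygous and 3 wildtype samples, after spots marked as outliers were dropped. On the distal side the nearest probe, 15 kb away, reads the expressed sequence CD768206, which has no gene name in the tables used. CD768206 had values of 9.38, 9.34, 9.47 and 9.17 in heterozygous samples, against 9.43, 9.62, 9.87 and 10.02 in wildtype samples. All heterozygous values but that of replicate 3 lay below the lowest wildtype value. Its difference was -0.40 (SE 0.15, unadjusted p 0.0318, limma adjusted p 0.525), and it was -0.23 (SE 0.24) in the Cy3 samples alone and -0.57 (SE 0.18) in the Cy5 samples alone. H2-DMa, 24 kb distal, a chaperone chain for class II peptide loading, differed by -0.34 (SE 0.18), and its partner H2-DMb1 by -0.16 (SE 0.21). Without heterozygous replicate 3 the difference of H2-DMa was -0.16 (SE 0.13), and it was -0.68 (SE 0.25) in Cy3 alone and -0.01 (SE 0.14) in Cy5 alone.

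Among the class I genes on the list, 7 of 8 probes gave positive differences (median 0.24), and none passed the adjusted threshold. An unadjusted p under 0.05 was found for 3 of the 8, or 37.5%. Over all probes tested that share was 8.76%, the median was -0.01 and 48.3% of the differences were positive. The 3 probes belong to H2-K1 and to an overlapping pair of H2-K2, so they are not 3 independent measurements. H2-K1, 0.116 Mb proximal, encodes a classical class I heavy chain. Its probe shown above lies in the coding part, at the membrane-spanning segment, and measured 10.27, 10.53, 10.80 and 10.88 in heterozygous samples, against 10.33, 10.07, 9.91 and 9.83 in wildtype samples. All heterozygous values but that of replicate 1 lay above the highest wildtype value. The difference was 0.59 (SE 0.18, unadjusted p 0.0109, limma adjusted p 0.474). It ranged from 0.50 to 0.74 when any 1 sample was left out.

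A second H2-K1 probe, at 34133055 to 34133114, measured 11.27, 11.80, 12.34 and 11.79 in heterozygous samples, against 11.31, 11.33, 11.67 and 11.66 in wildtype samples. The highest value was that of heterozygous replicate 3, and without it the difference of 0.31 (SE 0.23) became 0.10 (SE 0.17). The groups overlapped on both probes of the gene.

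H2-K2, a gene of the class I family whose reference transcript is recorded as non-coding, lies 0.138 Mb proximal. It was read by both probes shown above, which share 39 positions and hold the same base at 37 of them, so they are not independent measurements. The first measured 11.37, 11.72, 11.92 and 12.01 in heterozygous samples, against 11.13, 10.86, 11.57 and 11.39 in wildtype samples, a difference of 0.52 (SE 0.20, unadjusted p 0.0346, limma adjusted p 0.537). The second measured 10.76, 11.01, 11.09 and 11.10 in heterozygous samples, against 10.60, 10.39, 10.78 and 10.74 in wildtype samples, a difference of 0.36 (SE 0.13, unadjusted p 0.0274, limma adjusted p 0.523). On both probes heterozygous replicate 1 was the lowest of its group and fell among the wildtype values. In Cy3 alone the differences of the 2 probes were 0.29 (SE 0.29) and 0.23 (SE 0.22), and in Cy5 alone 0.74 (SE 0.22) and 0.49 (SE 0.17). Without wildtype replicate 2 they were 0.36 (SE 0.19) and 0.26 (SE 0.13).

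The class I genes at the distal end differed less. H2-D1, the other classical heavy chain of C57BL/6 mice, lies 1.15 Mb distal and measured 11.83, 11.999, 11.65 and 11.98 in heterozygous samples, against 11.66, 11.44, 11.98 and 11.70 in wildtype samples. The difference was 0.17 (SE 0.15), with overlapping groups; it was -0.08 (SE 0.22) in Cy3 alone and 0.42 (SE 0.15) in Cy5 alone. The H2-Q2 probes differed by 0.18 and 0.10, H2-Q1 by -0.10 and H2-Q3, which the class I list did not hold, by 0.12. Averaged over the 8 class I probes, the level against the wildtype mean was 0.05, 0.26, 0.32 and 0.43 in heterozygous samples 1 to 4, against 0.01, -0.14, 0.15 and -0.01 in wildtype replicates 1 to 4. Heterozygous replicate 1 lay within the wildtype range and the other heterozygous samples lay above it. RNA of one class I gene can hybridise to the probe of a related one, which was not tested. The probes of different class I genes shared runs of at most 12 bases with each other. They were not compared with the transcripts of related genes, so these runs do not measure such hybridisation.

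Genes that serve class I were tested as well. Tap2, a subunit of the transporter that carries peptides into the endoplasmic reticulum, differed by 0.19 (SE 0.15), and Tapbp, the tapasin that bridges transporter and class I, by 0.27 (SE 0.17). Tapbp measured 10.07, 10.53, 10.58 and 10.49 in heterozygous samples, against 10.001, 9.93, 10.49 and 10.18 in wildtype samples, so heterozygous replicate 1 fell among the wildtype values. Endothelial markers had mean levels of -0.05 to 0.12 in heterozygous and -0.05 to 0.07 in wildtype samples, with 7 of 10 differences positive. Microglial markers had mean levels of -0.20 to 0.06 in heterozygous and -0.29 to 0.34 in wildtype samples, with 5 of 14 differences positive. In tissue samples such as these, a different number of cells of a type and a different amount of RNA per cell cannot be told apart.

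**Figure D3:**
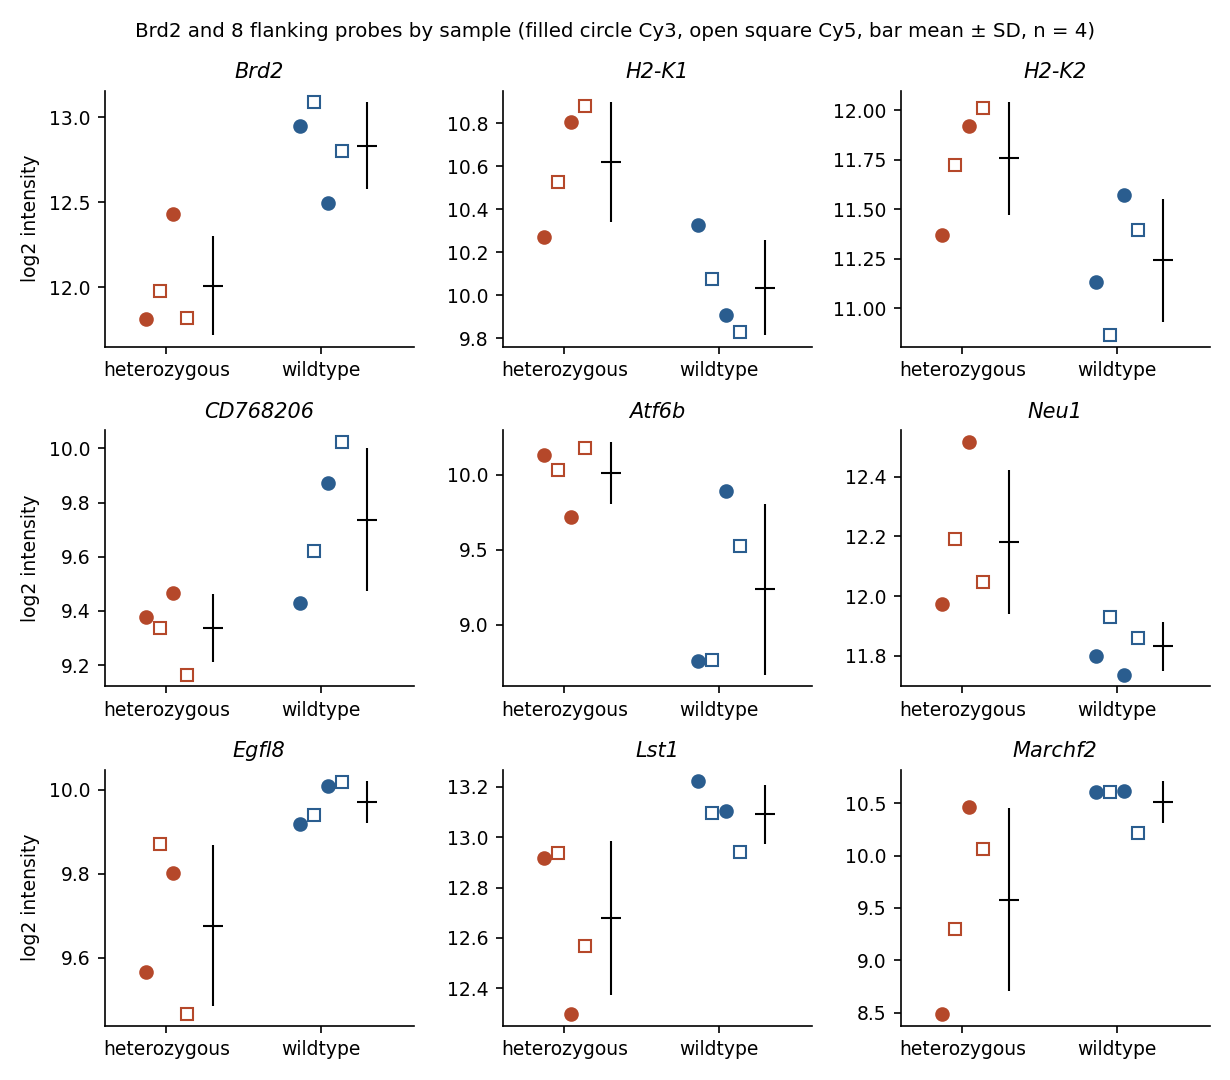
Log2 intensity by sample, dye effect removed, of Brd2 and 8 flanking probes; circles are Cy3 and squares Cy5 samples, with mean and SD (n = 4) beside them. Heterozygous replicate 1 is the lowest heterozygous sample for H2-K1, H2-K2, Neu1 and Marchf2, and only Brd2, Neu1, Egfl8 and Lst1 have groups that do not overlap among the 9 probes drawn.

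Class II genes were dim in this tissue, apart from H2-DMa and H2-DMb1, which were well above background in all 8 samples. None of the 7 tested class II probes had an unadjusted p under 0.05, against 8.76% of all probes tested. H2-Ab1, the beta chain, was read by a pair of probes that share 51 positions, with differences of 0.14 (SE 0.29) and 0.34 (SE 0.21). H2-Eb1 differed by 0.26 (SE 0.22) and H2-Ob, the partner of H2-Oa, by -0.24 (SE 0.17). There were 4 positive and 3 negative differences in the group. The first H2-Ab1 probe ran from 7.54 to 8.93 in heterozygous samples and from 8.03 to 8.48 in wildtype samples.

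Of the complement genes, C4b, the class III component that glia make in the brain, was the brightest probe. It measured 12.26, 12.65, 13.06 and 13.70 in heterozygous samples, against 12.67, 12.77, 13.50 and 12.38 in wildtype samples, a difference of 0.09 (SE 0.35). The groups spanned the same range. Cfb, the protease of the alternative pathway, differed by -0.01 (SE 0.10) and C2, its counterpart in the classical pathway, by 0.07 (SE 0.24).

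In the tumour necrosis factor cluster and among other immune genes of the class III region, 6 of 11 probes gave positive differences (median 0.01). Lst1, a small membrane protein of leukocytes, measured 12.92, 12.94, 12.30 and 12.57 on the brighter of its probes in heterozygous samples, against 13.22, 13.10, 13.10 and 12.94 in wildtype samples. The highest heterozygous and the lowest wildtype value nearly met. The difference was -0.41 (SE 0.17, unadjusted p 0.0388, limma adjusted p 0.545), but the other Lst1 probe, 2 kb away, gave -0.04 (SE 0.19). Without heterozygous replicate 3 the brighter probe gave -0.27 (SE 0.13). Aif1, a calcium-binding protein of microglia next to Lst1, measured 10.27, 10.76, 11.05 and 10.65 in heterozygous samples, against 10.74, 10.82, 11.49 and 11.31 in wildtype samples, a difference of -0.41 (SE 0.23). Without wildtype replicate 3 it was -0.23 (SE 0.21), and the microglial markers were highest in that sample, at 0.34; their part in it was not tested.

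The chromatin and transcription genes were the largest group, with 33 probes tested, 17 of them positive, and a median of 0.05. Atf6b, a membrane-bound transcription factor of the endoplasmic reticulum stress response, lies 0.541 Mb distal. It measured 10.13, 10.03, 9.72 and 10.18 in heterozygous samples, against 8.76, 8.77, 9.89 and 9.53 in wildtype samples. Wildtype replicates 1 and 2, which shared an array, were lower than all other samples by more than 0.7. The difference was 0.78 (SE 0.28, unadjusted p 0.0231, limma adjusted p 0.511), and it was 0.54 (SE 0.25) without wildtype replicate 1 and 1.07 (SE 0.20) without wildtype replicate 3. The part of that array in the value was not tested.

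Skiv2l, a helicase that works with the cytoplasmic RNA exosome, measured 10.65, 10.50, 10.37 and 10.95 in heterozygous samples, against 10.16, 9.94, 10.44 and 10.23 in wildtype samples. Heterozygous replicate 3 and wildtype replicate 3 crossed. The difference was 0.42 (SE 0.16, unadjusted p 0.0334, limma adjusted p 0.529), and without heterozygous replicate 4 it was 0.26 (SE 0.17). Dxo, a decapping enzyme gene right beside Skiv2l, differed by 0.25 (SE 0.16). Pbx2, a homeodomain cofactor, measured 11.45, 11.35, 11.52 and 11.56 in heterozygous samples, against 11.16, 11.10, 11.25 and 11.37 in wildtype samples, a difference of 0.25 (SE 0.11, unadjusted p 0.0471, limma adjusted p 0.562). Heterozygous replicate 2 and wildtype replicate 4 were the only samples that crossed.

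The following regulators and zinc finger genes that are named had an unadjusted p of 0.05 or more. Ehmt2, the histone H3 lysine methyltransferase, differed by -0.10 (SE 0.11), Daxx, a histone chaperone, by -0.02 (SE 0.18), and Ring1, a Polycomb ubiquitin ligase, by 0.19 (SE 0.13). Notch4, a receptor of endothelial cells, differed by 0.09 (SE 0.15) and Hnrnpm, a splicing regulator, by 0.09 (SE 0.19). The zinc finger genes named Zfp made up 15 tested probes of 10 genes, with 6 positive and 9 negative differences between -0.42 and 0.33. Of these, one dim Zfp763 probe had all heterozygous values, 7.42 to 7.58, below all wildtype values, 7.63 to 7.78, and differed by -0.21 (SE 0.09), while the brighter Zfp763 probe differed by -0.03 (SE 0.17). Zfp955a measured 9.92 to 10.36 in heterozygous and 9.49 to 9.99 in wildtype samples, a difference of 0.33 (SE 0.15).

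Among membrane, vesicle and lysosome genes, 12 of 20 probes gave positive differences (median 0.04). Neu1, the lysosomal sialidase, measured 11.97, 12.19, 12.52 and 12.05 in heterozygous samples, against 11.80, 11.93, 11.74 and 11.86 in wildtype samples. The groups did not overlap, and heterozygous replicate 3 stood highest. The difference was 0.35 (SE 0.14, unadjusted p 0.0366, limma adjusted p 0.544), and 0.21 (SE 0.10) without heterozygous replicate 3. Marchf2, a membrane-bound ubiquitin ligase 0.403 Mb proximal, measured 8.49, 9.30, 10.47 and 10.06 in heterozygous samples, against 10.61, 10.60, 10.62 and 10.21 in wildtype samples. The heterozygous samples spread over nearly 2.0 log2 units and replicates 1 and 2, which shared an array, were lowest. The difference was -0.93 (SE 0.40, unadjusted p 0.0488, limma adjusted p 0.565), and without heterozygous replicate 1 it was -0.46 (SE 0.22). A dimmer Marchf2 probe 22 kb from it differed by 0.12 (SE 0.12). Rab11b, a recycling endosome GTPase with values in 3 heterozygous and 4 wildtype samples, differed by 0.00 (SE 0.17), and the tethering gene Vps52 by -0.18 (SE 0.14), with 3 wildtype values, and 0.02 (SE 0.14).

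Egfl8, a secreted protein with EGF-like repeats that the enzyme list holds by mistake, measured 9.57, 9.87, 9.80 and 9.47 in heterozygous samples, against 9.92, 9.94, 10.01 and 10.02 in wildtype samples. All heterozygous values lay below the wildtype values, by 0.05 at the closest pair. The difference was -0.29 (SE 0.12, unadjusted p 0.0408, limma adjusted p 0.55). Its probe and that of Agpat1, an enzyme of phospholipid synthesis, cover 58 shared positions on opposite strands. Agpat1 measured 11.39, 12.15, 12.36 and 11.53 in heterozygous samples, against 11.04, 11.44, 12.14 and 11.80 in wildtype samples, a difference of 0.25 (SE 0.30), smaller than its SE. Without wildtype replicate 1 the Agpat1 difference was 0.01 (SE 0.25), and without heterozygous replicate 3 it was 0.04 (SE 0.31). Among the remaining genes of the enzyme list, Csnk2b, a casein kinase subunit, differed by -0.01 (SE 0.22), and the steroid enzyme gene H2-Ke6 by -0.15 (SE 0.13). Of the 4 secreted and matrix genes none had an unadjusted p under 0.05; Apom, an apolipoprotein, differed by -0.24 (SE 0.13) and Tnxb, a tenascin, by 0.09 (SE 0.16).

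Different probes of one gene often disagreed. Of 18 flanking genes with several tested probes, 8 had differences of one sign and 10 had differences of both signs. Both signs were found for Ddx39b, an RNA helicase, with -0.08 (SE 0.12), 0.06 (SE 0.28) and 0.10 (SE 0.09), and for B3galt4, a ganglioside enzyme, with -0.37 (SE 0.24) and 0.06 (SE 0.09).

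**Figure D4:**
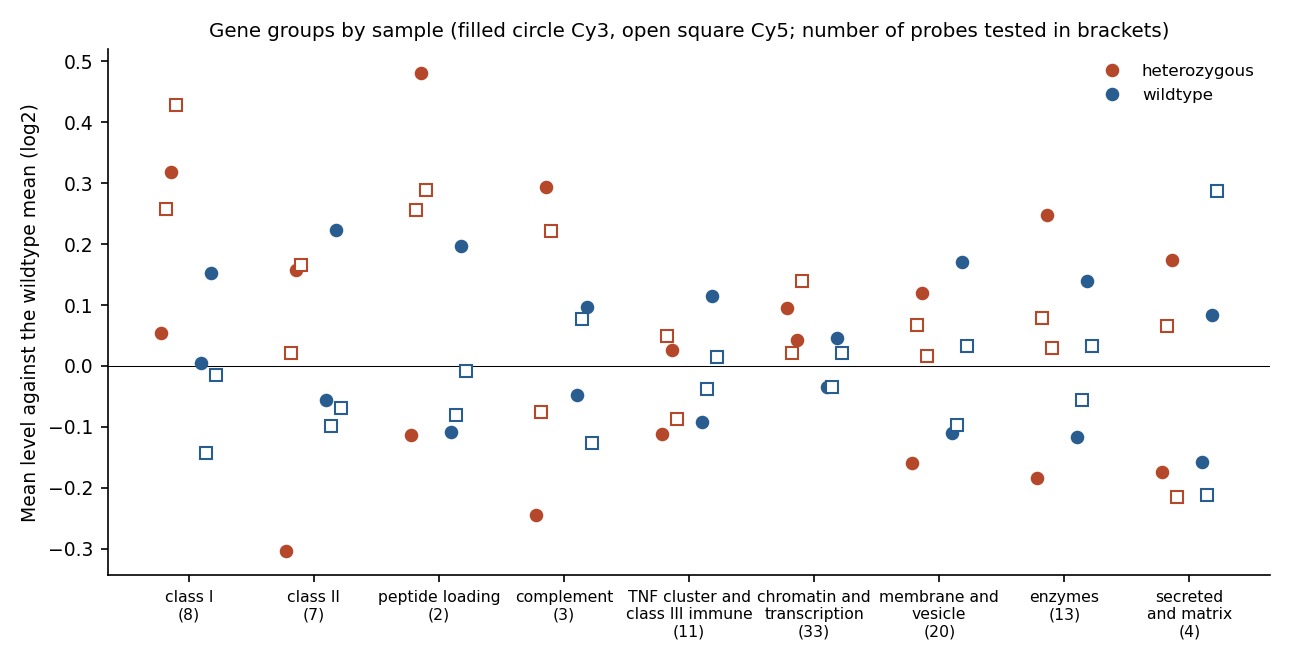
Mean level of each group of flanking genes by sample, against the wildtype mean of each probe (log2), with the number of probes tested in brackets; circles are Cy3 and squares Cy5 samples. In every group the heterozygous and wildtype samples overlap, and class I runs from 0.05 to 0.43 in heterozygous and from -0.14 to 0.15 in wildtype samples.

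The single probe of the array that passed the adjusted threshold lies on the same chromosome, 3.60 Mb proximal of Brd2 and outside the window. It reads Btbd9, at 30650514 to 30650573, and measured 10.59, 10.49, 10.07 and 10.49 in heterozygous samples, against 8.59, 8.55, 8.74 and 8.46 in wildtype samples. The difference was 1.83 (SE 0.14, limma adjusted p 0.0344), and every heterozygous value exceeded every wildtype value by more than 1.3. The call depended on the processing. No probe of the array passed with the deposited value table, without normalization between arrays, without the filter on dim probes or in Cy3 alone. Of the fits with 1 sample left out, only that without heterozygous replicate 3 called any probe. Of the other Btbd9 probes, one differed by 0.25 (SE 0.11), with all heterozygous values narrowly above the wildtype values. Another differed by 0.03 (SE 0.10), with overlapping groups. Btbd9 encodes a BTB-domain protein linked to restless legs syndrome in humans.

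**Figure D5:**
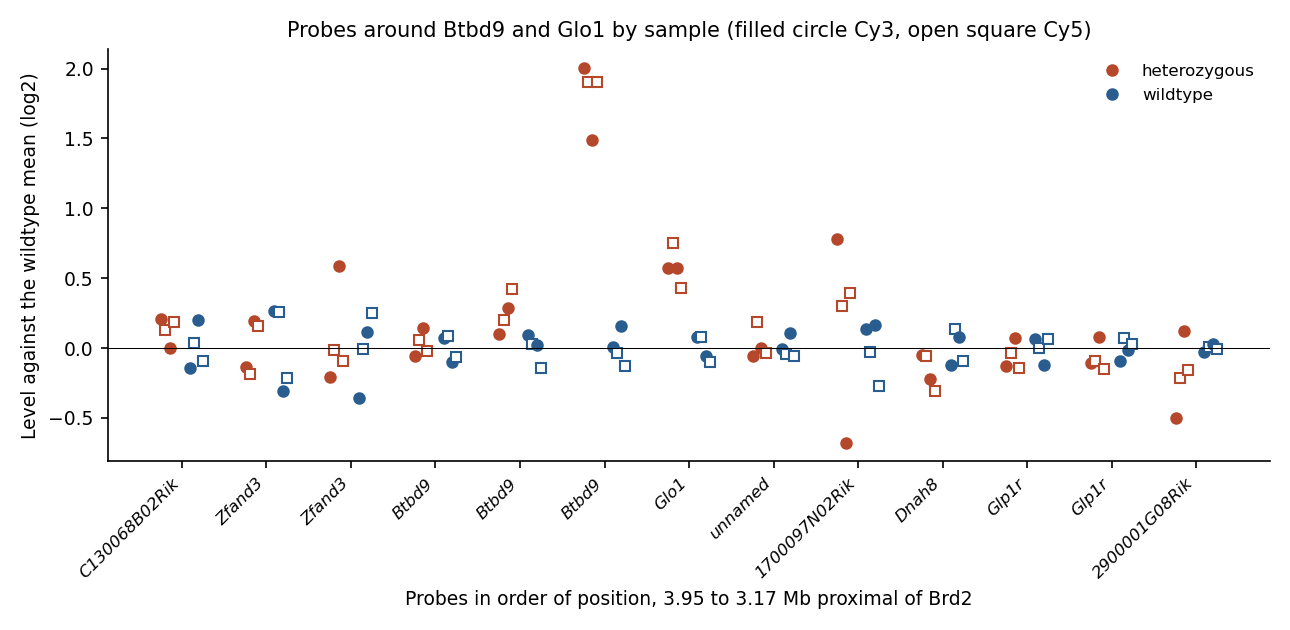
Level against the wildtype mean (log2) by sample for the 13 tested probes between 3.95 and 3.17 Mb proximal of Brd2, in order of position; circles are Cy3 and squares Cy5 samples. One Btbd9 probe and the Glo1 probe stand clear of the wildtype samples, with differences of 1.83 and 0.58. A second Btbd9 probe, with a difference of 0.25, also had all heterozygous values above the wildtype values, by a narrow margin.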

How the data were processed

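Per the file headers, Agilent Feature Extraction 10.7.3.1 gave the linear spot intensity (mean brightness and local background median) of array design 026655; the processed intensities in the same files were background-subtracted and dye-normalized by that software. Both samples of an array came with identical files, and each was read from its own channel. The deposited value table holds a ratio, the background-subtracted median intensity over its column's median (matched within 1e-04), and was an alternative only.

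Here, background was removed by normexp with an offset of 50, followed by loess within and Aquantile between arrays (R 4.3.3 with limma 3.58.1 and statmod 1.5.0) and split into log2 values per sample, in contrast to the deposited linear values. Control spots (1377, beside 43020 other spots) and outlier spots (230 to 978 per sample) were left out, and repeated spots of 1 probe were averaged. Probes were tested if well above background in at least 4 samples; 25338 were kept and 25325 could be fitted. limma's lmFit and eBayes had genotype and dye as fixed effects and array as random block. The consensus correlation between samples of an array was -0.0097, and it was 0.684 without normalization between arrays. The prior had 2.86 degrees of freedom. Benjamini-Hochberg adjustment ran over all probes, with a threshold of 0.05. Printed levels have the dye effect removed. The fit was tested on simulated data.

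All arrays share 1 slide and 1 scan. No array carried both genotypes, so what belongs to an array and what to the genotype cannot be told apart in full. Gene names came from the RefSeq table of GRCm38.p6 (159 of 184 flanking probes); coordinates are those of the files (mm9). Same-numbered samples were not treated as pairs in the reported fit, and the correlations between them cannot decide whether they were paired. The members and lists were chosen with earlier results of these data known. Genes were named by a rule: Brd2, the 3 nearest genes on each side, the 10 smallest p in each direction, the 2 smallest of each list, and well-known genes of the region; H2-Q1, H2-Q2, H2-Q3, Agpat1 and genes outside the window were named after their values were seen. The class I list held H2-Ke6 by mistake, which was left out; with it 7 of 9 probes were positive, median 0.18. Alternatives covered background correction, normalization, value table, filter, probe choice, blocks, dye, variance model, threshold, members and each sample left out. Figures were drawn with matplotlib.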

Additional observations from a re-analysis of the deposited data

Results flagged for a closer look

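The named flanking probes gave 125 groups of 3 or 4 samples. Of these, 4 held a sample whose gap to its nearest neighbour was large against the range of its group (Dixon's test at the 95% level). By chance about 1 in 20 would. Zfp955b was at 10.31 in heterozygous replicate 3, against 9.98 to 10.02 in the other heterozygous samples. Kank3, an ankyrin-repeat protein gene, was at 11.65 in heterozygous replicate 3, against 11.27 to 11.29 in the others. Tapbp was at 10.07 in heterozygous replicate 1, against 10.49 to 10.58 in the others. Marchf2 was at 10.21 in wildtype replicate 4, against 10.60 to 10.62 in the other wildtype samples. All values are log2 intensities.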

How the results depend on the processing

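No flanking probe was called under any of the alternatives run. The count at an unadjusted p under 0.05, 11 as reported, was 4 with the scanner software's processed signals (6.39% of all probes), 1 without normalization between arrays (0.671%), 2 with the deposited value table (5.02%), 2 in Cy3 alone (3.11%) and 6 of 52, or 11.5%, within 0.5 Mb of Brd2 (8.76%). Leaving out 1 sample gave 2 to 18, lowest without heterozygous replicate 4 (1.49%, against 3.99% of all probes) and highest without heterozygous replicate 1 (13.4%, against 11.5%). The count without overlap, 4 as reported, was 2 without normalization between arrays (2.39% of all probes) and 8 of 184 without the filter (7.88%). It was 26 in Cy3 alone and 66 in Cy5 alone, where 2 samples face 2 (background 32.1% and 44.7%), and 0 within 0.5 Mb (8.57%). With 1 sample left out it was 8 to 23, where 11.5% to 19.9% of all probes did not overlap. The median difference was 0.142 without normalization between arrays, where the median of all probes was 0.10. With the replicate number as a block, 12 flanking probes had an unadjusted p under 0.05, 8.96% against 8.92% of all probes. In that fit 0 flanking probes and 0 of all probes were called. Same-numbered samples correlated at 0.114 to 0.201, but at -0.301 to 0.164 once dye was removed. Removing group and dye means itself lowers such correlations, so these values do not decide whether the samples were paired. Brd2 ranged from -1.05 to -0.60. Of 63 named probes, 33 kept their sign in every alternative run and 30 did not. The causes were not tested. Signal over background limits the dim class II, butyrophilin-like and olfactory receptor probes.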

Other observations

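The stretch around the called Btbd9 probe, chosen after its values were seen, held a second probe with separate groups of samples and a small p. Glo1, which encodes the enzyme that detoxifies methylglyoxal, lies at 30729951 to 30730010, 3.52 Mb proximal of Brd2. It measured 12.62, 12.80, 12.62 and 12.48 in heterozygous samples, against 12.13, 12.13, 11.99 and 11.95 in wildtype samples. The difference was 0.58 (SE 0.11, unadjusted p 8e-04, limma adjusted p 0.373), so it did not pass the threshold over all probes. As background, the copy number of a stretch that includes Glo1 is known to differ between inbred mouse strains; DNA was not measured here. On either side of Glo1, Zfand3 differed by 0.01 and 0.07, Dnah8 by -0.16 and Glp1r by -0.06 and -0.07. Which of these genes lie in that stretch was not examined.

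Class I and related genes of the H2 complex beyond the window were read by 12 tested probes of 12 genes, with 7 positive and 5 negative differences and a median of 0.03. H2-T22, a nonclassical class I gene 1.93 Mb distal of Brd2, measured 8.46, 7.64, 7.84 and 8.004 in heterozygous samples, against 6.98, 7.37, 6.97 and 7.24 in wildtype samples. Its difference was 0.85 (SE 0.19, limma adjusted p 0.402), and it was well above background in 2 samples of each genotype. H2-Q6 measured 10.23, 10.35, 10.50 and 10.50 in heterozygous samples, against 10.21, 10.04, 10.11 and 10.17 in wildtype samples, a difference of 0.26 (SE 0.11). B2m, the light chain of all class I molecules, is on chromosome 2 and differed by -0.05 (SE 0.21).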
